A study of Mus musculus with 12 samples.

Results

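The lysosome genes described here encode acid hydrolases, lipid-handling proteins, membrane proteins, proton pump subunits and regulators of the lysosome, with Glb1, the gene of the β-galactosidase that senescence staining detects, among them. They were chosen by name as lysosome genes. Of 33 genes, 32 had a probe set that carried their symbol, out of 16475 probe sets tested on each array. Cd63 had no probe set with its symbol in the annotation used here and was not analysed. Under RSL, the ligand that switches on the inducible Ier2 construct, 1 of the 32 genes passed the test in inducible cells, Gla. That share, 3.12%, was near the 2.54% of all probe sets. In parental cells none passed, where 0.0303% of all probe sets did. The call of Gla ended when any inducible array was left out. The difference of its RSL effects between the lines did not pass (adjusted p = 0.312, limma). Between the cell lines without ligand, 19 of the 32 differed (59.4%), as did 29.7% of all probe sets and 44.5% of the 60% with the highest mean.

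Total RNA was profiled on 12 Affymetrix Mm430_2.0 arrays, 3 in each of 4 groups. The inducible cells were 3T3-ind-IER2 #11, a single clone of the mouse fibroblast line NIH 3T3 (Klon11 in the labels) that carries the RheoSwitch plasmid pNEBR-R1 and a second plasmid with mouse Ier2 under its control. The parental cells were NIH 3T3, for which the labels name no plasmid. Each line received DMSO, the solvent, or 200 nM RSL-1 (RSL), and was harvested after 24 h. The growth protocol, given alike for all samples, listed G418 and hygromycin. Because the inducible cells were 1 clone, the construct, the selection and the origin from a single cell cannot be told apart in a comparison of the lines. The labels call the replicates biological without saying that they were separate cultures, so p-values measured the spread between these arrays.

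Lysosomes break down material taken in by the cell or delivered by autophagy. Their hydrolases work at the acid pH that a proton pump, the V-ATPase, maintains, and most reach the organelle through a mannose 6-phosphate tag and its receptors. In many cell types TFEB, a transcription factor that moves to the nucleus on starvation or lysosomal stress, raises lysosome genes together through an E-box with the core CACGTG near their start sites. Senescent fibroblasts are known for a large lysosomal compartment, and the β-galactosidase activity by which they are commonly recognised comes from the lysosomal enzyme of Glb1.

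The promoters of 4 of the genes described in full below are shown because each holds this core. They are the 250 bases before and the 50 bases after a start site, from RefSeq on build GRCm38.p6, printed 5′ to 3′ on the strand of the gene, with CACGTG in capitals. The region of Gla was chrX:134600956-134601255 on the minus strand. That of Glb1 was chr9:114400828-114401127 on the plus strand. That of Lamp1 was chr8:13158911-13159210 on the plus strand. That of Atp6v0d1 was chr8:105566015-105566314 on the minus strand.
Gla: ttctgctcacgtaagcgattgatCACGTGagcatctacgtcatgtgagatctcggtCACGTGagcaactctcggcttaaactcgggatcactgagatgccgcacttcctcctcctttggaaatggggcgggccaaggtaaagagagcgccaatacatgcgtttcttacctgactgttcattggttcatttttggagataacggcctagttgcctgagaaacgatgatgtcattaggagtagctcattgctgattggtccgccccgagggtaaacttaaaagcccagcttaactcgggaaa
Glb1: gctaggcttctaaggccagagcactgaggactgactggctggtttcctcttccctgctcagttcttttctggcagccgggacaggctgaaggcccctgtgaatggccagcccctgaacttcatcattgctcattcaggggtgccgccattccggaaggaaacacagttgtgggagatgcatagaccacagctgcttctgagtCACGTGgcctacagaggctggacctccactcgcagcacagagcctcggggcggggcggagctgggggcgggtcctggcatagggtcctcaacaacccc
Lamp1: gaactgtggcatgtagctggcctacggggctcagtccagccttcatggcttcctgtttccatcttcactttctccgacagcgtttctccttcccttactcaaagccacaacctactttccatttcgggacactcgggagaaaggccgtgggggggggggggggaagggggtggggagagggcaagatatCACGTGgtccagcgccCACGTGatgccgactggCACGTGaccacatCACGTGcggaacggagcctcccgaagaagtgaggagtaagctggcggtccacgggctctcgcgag
Atp6v0d1: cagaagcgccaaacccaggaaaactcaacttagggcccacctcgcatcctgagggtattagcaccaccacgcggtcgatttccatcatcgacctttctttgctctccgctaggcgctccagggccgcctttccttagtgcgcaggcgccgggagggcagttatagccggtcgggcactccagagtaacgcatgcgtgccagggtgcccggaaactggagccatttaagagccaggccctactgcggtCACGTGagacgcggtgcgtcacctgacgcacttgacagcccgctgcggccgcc

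Positions are counted from the start site, with negative values before it. In Gla the core began at -227 and -194, both times inside the longer palindrome TCACGTGA. Glb1 held it once, at -48, and Lamp1 4 times, at -61, -45, -28 and -15, in each case without the longer form. In Atp6v0d1 it lay at -3, inside TCACGTGA. Both motifs read the same on either strand, and every TCACGTGA contains a CACGTG. Of the 32 genes, 26 had a promoter in the RefSeq table and 6 were not matched. CACGTG was present in 10 of the 26 (38.5%), against 2187 of 27025 genes in the table (8.09%) and 7.15% of all 32851 windows of this length. TCACGTGA was present in 6 of the 26 (23.1%), against 1.12% of all genes. Of the 78 matched genes in the other lysosomal and autophagic lists described below, 21 (26.9%) held CACGTG. Besides the 4 shown, the genes of the list with the core were Ctsa, Ctsd, Ctsl, Gaa, Cln3 and Mcoln1. A match describes the letters of the window and was not measured as a binding site.

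Values are the deposited log2 expression values, compared only within a gene. Array medians lay between 7.03 and 7.06. Arrays of the same group correlated at 0.9981 to 0.9992, and arrays of different cell lines at 0.9913 to 0.9932. The targeted gene did not follow its label. Ier2 read 9.02 ± 0.056 (SD, n = 3) in inducible cells under DMSO and 8.55 ± 0.099 in the inducible arrays labelled RSL, a log2 fold change of -0.47 (adjusted p = 4.64e-05, limma). In parental cells it was at 8.58 under DMSO and 8.75 in the arrays labelled RSL (adjusted p = 0.366). Every direction given below for RSL in inducible cells therefore rests on the labels of these arrays. All 9 fibroblast markers examined, such as Col1a1 and Vim, lay above the first quartile of every array. Of 9 macrophage markers, 5 did so as well and 2 lay below it on all arrays, and 4 of 5 epithelial and 4 of 5 endothelial markers lay below it on all arrays. None of these 28 markers was called under RSL in either line, where 2.54% of all probe sets were in inducible and 0.0303% in parental cells. In parental cells 5 of the 9 fibroblast markers reached an unadjusted p under 0.05 in limma, 1 higher and 4 lower. That was 55.6%, against 9.71% of all probe sets. Between the lines without ligand 8 of the 9 fibroblast markers were called (88.9%), 5 higher and 3 lower in the inducible cells. Of all probe sets 29.7% were called, and 44.5% of the 60% with the highest mean. The median size for the fibroblast markers was 0.31 on the log2 scale. In bulk RNA, fewer cells of a type and less RNA per cell cannot be told apart.

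**Figure D1:**
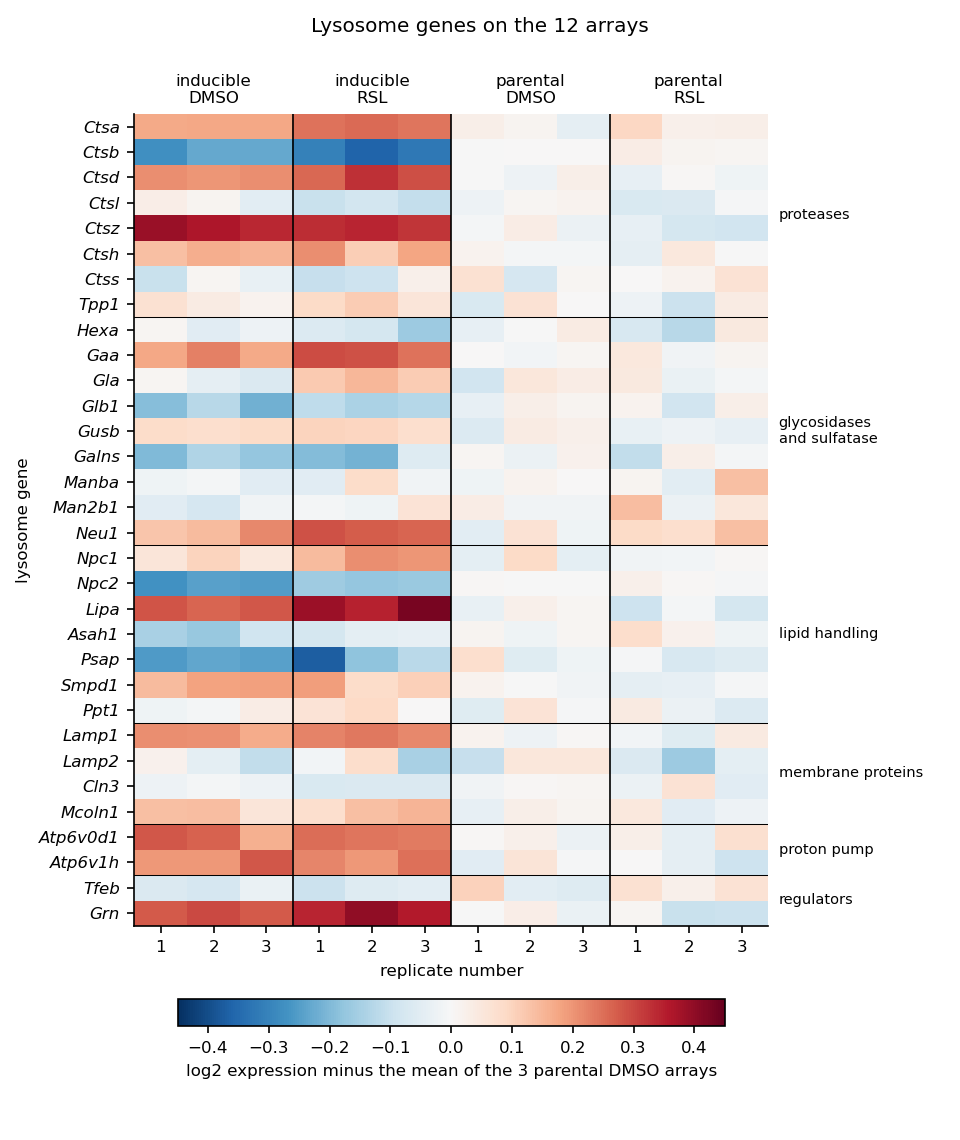
Log2 expression of the 32 lysosome genes (rows, by role) on the 12 arrays (columns, by group and replicate number), as the difference from the mean of the 3 parental DMSO arrays. The 6 inducible arrays share a pattern, with Ctsz, Lipa and Grn above and Ctsb, Npc2 and Psap below the parental arrays, and the columns labelled RSL look much like the DMSO columns of the same cells.

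The first question was whether the genes of lysosomal enzymes, Glb1 above all, moved when the inducible cells received RSL. Glb1 read 8.83, 8.90 and 8.81 in the inducible DMSO arrays and 8.91, 8.88 and 8.89 in the inducible RSL arrays. The ranges overlapped, since the highest DMSO array lay within the RSL arrays. The log2 fold change was 0.05 (SE 0.037), or 1.03-fold with a 95% confidence interval of 0.979 to 1.09, and the adjusted p was 0.735. In parental cells Glb1 was at 8.99, 9.05 and 9.04 under DMSO and at 9.04, 8.94 and 9.05 under RSL, with a log2 fold change of -0.015 (adjusted p = 0.912). These groups overlapped, with the second RSL array below every DMSO array. The difference between the RSL effects of the lines was 0.06 (95% confidence interval -0.049 to 0.175, adjusted p = 0.794). The transcript of the enzyme behind the senescence stain thus showed no change past the test 24 h after RSL. The upper end of the 95% interval in inducible cells, 1.09-fold, is not a limit on the change. Without 1 array the log2 fold change of Glb1 there lay between 0.029 and 0.074.

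Gla, which encodes α-galactosidase A, the enzyme missing in Fabry disease, was the only gene of the list to pass the test in a comparison of RSL with DMSO. It read 8.01, 7.97 and 7.94 in the inducible DMSO arrays and 8.12, 8.16 and 8.12 in the inducible RSL arrays. All 3 RSL arrays lay above all 3 DMSO arrays. Gla rose by a log2 fold change of 0.16 (SE 0.039), or 1.12-fold (95% confidence interval 1.05 to 1.18), with an adjusted p of 0.0376 in limma. In parental cells it read 7.92, 8.06 and 8.04 under DMSO and 8.05, 7.98 and 7.996 under RSL, a log2 fold change of 0.0019 (adjusted p = 0.992). These ranges overlapped fully. The difference between the lines, 0.16 (SE 0.055), did not pass (adjusted p = 0.312), so an effect particular to the inducible cells was not shown. Leaving out any of the 6 inducible arrays ended the call, with adjusted p-values of 0.0628 to 0.1425, and so did subtracting array medians (0.0614) and the one-way analysis named in the methods after Benjamini-Hochberg adjustment (0.165).

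Over the whole list, 1 of 32 genes was called higher and 0 lower in inducible cells, or 3.12%, where 2.54% of all probe sets were called (1.32% higher and 1.21% lower) and 3.96% of the 60% with the highest mean. The share of the list was near that background. The median log2 fold change of the 32 genes was 0.025, against 0.0027 over all probe sets, with 23 genes above 0 and 9 below. At an unadjusted p under 0.05 there were 12 genes, 10 higher and 2 lower, or 37.5% of the list against 12.3% of all probe sets (6.29% higher and 6.04% lower). At that level the share among the 60% with the highest mean was not computed. The 3 RSL arrays lay entirely above or below the 3 DMSO arrays for 15 genes, or 46.9%, against 18.1% of all probe sets and 23.5% of the 60% with the highest mean. With 3 arrays against 3 an exact permutation test cannot go below p = 0.1, so this separation is a description. The genes were measured on the same 6 arrays and are not independent of each other.

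The log2 fold changes behind these counts were small, and of the values that follow none passed the test. Among proteases, Ctsd, the main aspartic protease of the lysosome, had a log2 fold change of 0.09 with an adjusted p of 0.208, and Ctsa, which protects the sialidase Neu1 and β-galactosidase in a complex, had 0.07 (adjusted p = 0.342). The cysteine proteases Ctsb and Ctsl were at -0.08 and -0.09 (adjusted p = 0.225 and 0.192). These 4 proteases reached an unadjusted p under 0.05, 2 on either side of 0. The remaining proteases, Ctsz, Ctsh, Ctss and Tpp1, lay between -0.03 and 0.05.

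Among glycosidases, Neu1, the lysosomal sialidase, was at 0.11 (adjusted p = 0.163) and Gaa, the acid α-glucosidase that clears glycogen, at 0.08 (adjusted p = 0.244). Hexa, the α subunit of β-hexosaminidase, was at -0.08 (adjusted p = 0.515), with its RSL arrays, at 10.18, 10.16 and 10.07, all below its DMSO arrays, at 10.25, 10.19 and 10.22. Gusb, the β-glucuronidase, was at 0.0099, and Galns, a sulfatase of keratan sulfate, at 0.015. Manba and Man2b1, the mannosidases, were at 0.03 and 0.06. Manba lay below the first quartile on all 12 arrays, as did the protease Ctsh, so both read near the lower end of the scale.

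Of 7 genes of lysosomal lipid handling, 4 reached an unadjusted p under 0.05, each with the higher value under RSL (57.1%, where 6.29% of all probe sets were higher at that level), and none passed after adjustment. Npc1 and Npc2, which together export cholesterol from the lysosome, were at 0.12 and 0.09 (adjusted p = 0.157 and 0.153). Lipa, the acid lipase that releases cholesterol from its esters, was at 0.11 (adjusted p = 0.125), and Asah1, the acid ceramidase, at 0.08 (adjusted p = 0.313). Their RSL arrays lay above the DMSO arrays in each case. Npc2 was the tightest of them, at 10.16, 10.18 and 10.18 under DMSO and 10.27, 10.25 and 10.26 under RSL. Lipa was at 7.64, 7.62 and 7.63 under DMSO and at 7.74, 7.70 and 7.78 under RSL. Psap, the precursor of the saposins that present sphingolipids to hydrolases, read 10.58, 10.60 and 10.59 under DMSO but 10.46, 10.65 and 10.71 under RSL. Its first RSL array lay below and the others above all DMSO arrays, and its log2 fold change was 0.019. Smpd1, the acid sphingomyelinase, and Ppt1, a palmitoyl-protein thioesterase, were at -0.04 and 0.05.

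No gene of a membrane protein, proton pump subunit or regulator passed the test. Lamp1, an abundant glycoprotein of the lysosomal membrane, read 11.98, 11.98 and 11.94 under DMSO and 11.998, 12.01 and 11.99 under RSL. The groups did not overlap, but they lay so close that the log2 fold change was 0.03 (95% confidence interval -0.037 to 0.0999, adjusted p = 0.832). Lamp2 and Mcoln1, the latter a calcium channel of the lysosome, were at 0.020 and 0.010, and Cln3, a membrane protein mutated in Batten disease, at -0.05. The V-ATPase subunits Atp6v0d1 and Atp6v1h were at 0.0067 and -0.0041. Tfeb itself read 7.20, 7.19 and 7.24 under DMSO and 7.17, 7.21 and 7.22 under RSL, a log2 fold change of -0.010 with an interval of -0.095 to 0.075. Its arrays overlapped throughout. Grn, the gene of progranulin, a secreted glycoprotein that lysosomes process, was at 10.82, 10.84 and 10.82 under DMSO and at 10.88, 10.94 and 10.90 under RSL, a log2 fold change of 0.08 (adjusted p = 0.343).

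**Figure D2:**
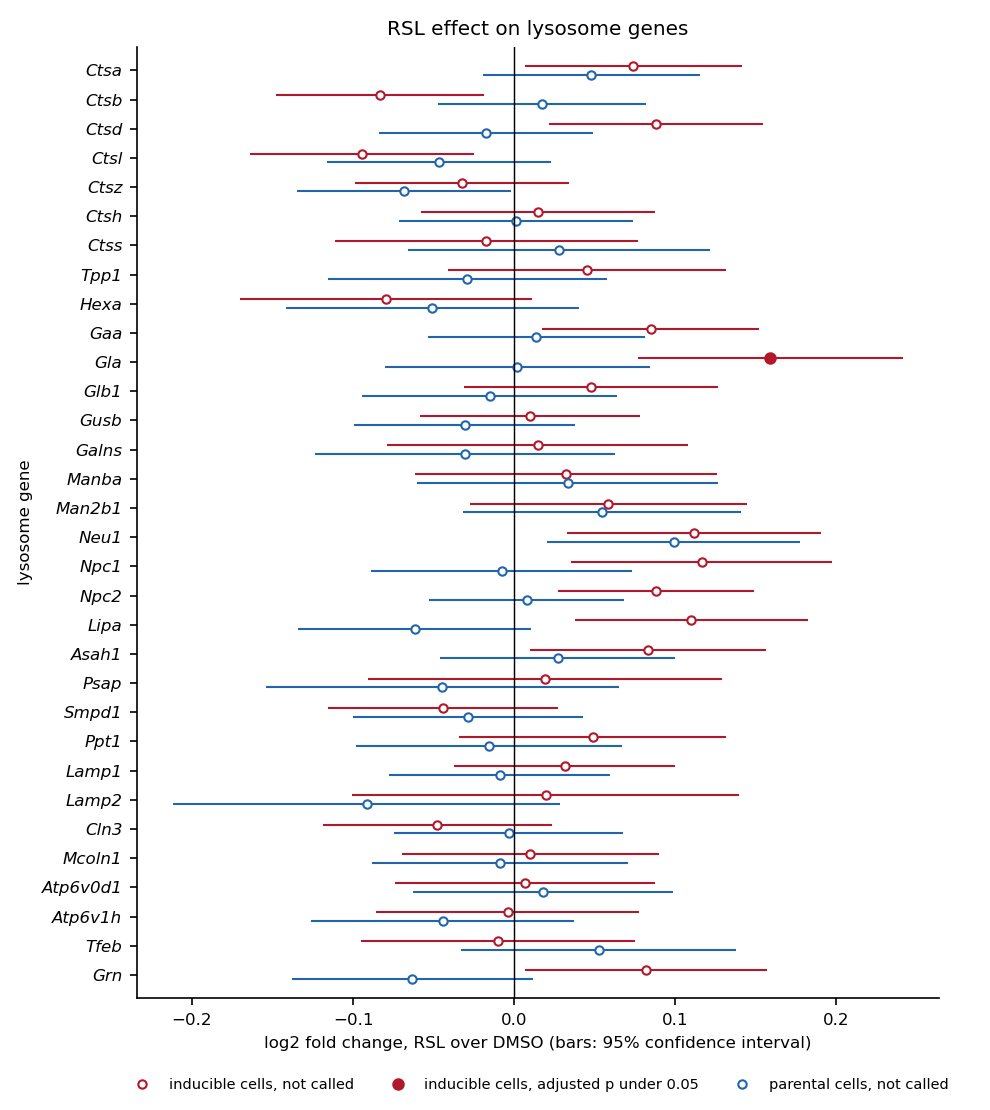
Log2 fold change of RSL over DMSO for the 32 lysosome genes (horizontal axis, bars 95% confidence intervals from limma), in inducible cells (red) and parental cells (blue). Gla in inducible cells is the single filled point, all intervals lie within -0.211 and 0.241, and the intervals of the lines overlap for every gene except Lipa.

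The same ligand was also given to the parental cells, for which the labels name no plasmid. None of the 32 genes was called there, where 0.0303% of all probe sets were, and 2 genes (6.25%) reached an unadjusted p under 0.05, against 9.71% of all probe sets. These lay on opposite sides. Neu1 was higher, at 7.18, 7.29 and 7.21 under DMSO and 7.31, 7.30 and 7.36 under RSL, a log2 fold change of 0.099 (adjusted p = 0.427) beside 0.11 in inducible cells. Ctsz was lower, at 9.99, 10.03 and 9.97 under DMSO and 9.96, 9.91 and 9.91 under RSL, a log2 fold change of -0.07 (adjusted p = 0.501) beside -0.03. The median of the list was -0.0089, and 3 genes (9.38%) did not overlap between the groups, Ctsb, Neu1 and Ctsz, against 13.3% of all probe sets. The number of such genes was 9 without DMSO replicate 1 or RSL replicate 2, but leaving out an array can only keep or raise it. With array medians subtracted it was 2, 0 higher and 2 lower, so Ctsb and Neu1 no longer lay higher without overlap.

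The difference between the RSL effects of the lines was called for none of the 32 genes, where 0.662% of all probe sets were called. At an unadjusted p under 0.05 it stood out for 6 (18.8%, against 9.07% of all probe sets), of which Lipa, Gla, Grn, Npc1 and Ctsd had the higher and Ctsb the lower value in inducible cells. Lipa had the largest difference, 0.17 (SE 0.048, adjusted p = 0.156), with -0.06 in parental cells beside 0.11 in inducible cells. Its parental arrays read 7.32, 7.38 and 7.36 under DMSO and 7.26, 7.34 and 7.27 under RSL, and these overlapped. Grn had a difference of 0.145 (SE 0.050, adjusted p = 0.303), with parental arrays at 10.54, 10.57 and 10.51 under DMSO and 10.55, 10.44 and 10.44 under RSL. These overlapped as well.

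The genes of other lysosomal and autophagic proteins, listed by role, were also read under RSL. Of 105 such genes 94 were measured, and limma called 0 in inducible cells, in parental cells or for the difference. Over all probe sets the shares called were 2.54%, 0.0303% and 0.662%. In inducible cells 15 of them (13 higher and 2 lower, 16.0%) reached an unadjusted p under 0.05, against the 12.3% of all probe sets. In parental cells 9 did so (4 and 5, 9.57%, against 9.71%), and for the difference 12 (10 and 2, 12.8%, against 9.07%). Array weights called 3 of the 94 in inducible cells, beside 736 of all 16475 probe sets. The filter on low values, the intensity trend and repeated quantile normalization called 1 of the 94 each. Over all probe sets they called 513 of the 9885 that the filter kept, 483 with the trend and 458 with repeated normalization. Flcn, which encodes folliculin of the nutrient-sensing machinery on the lysosome, came closest in inducible cells, with a log2 fold change of 0.17 and an adjusted p of 0.054. It was named after its value was seen.

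**Figure D3:**
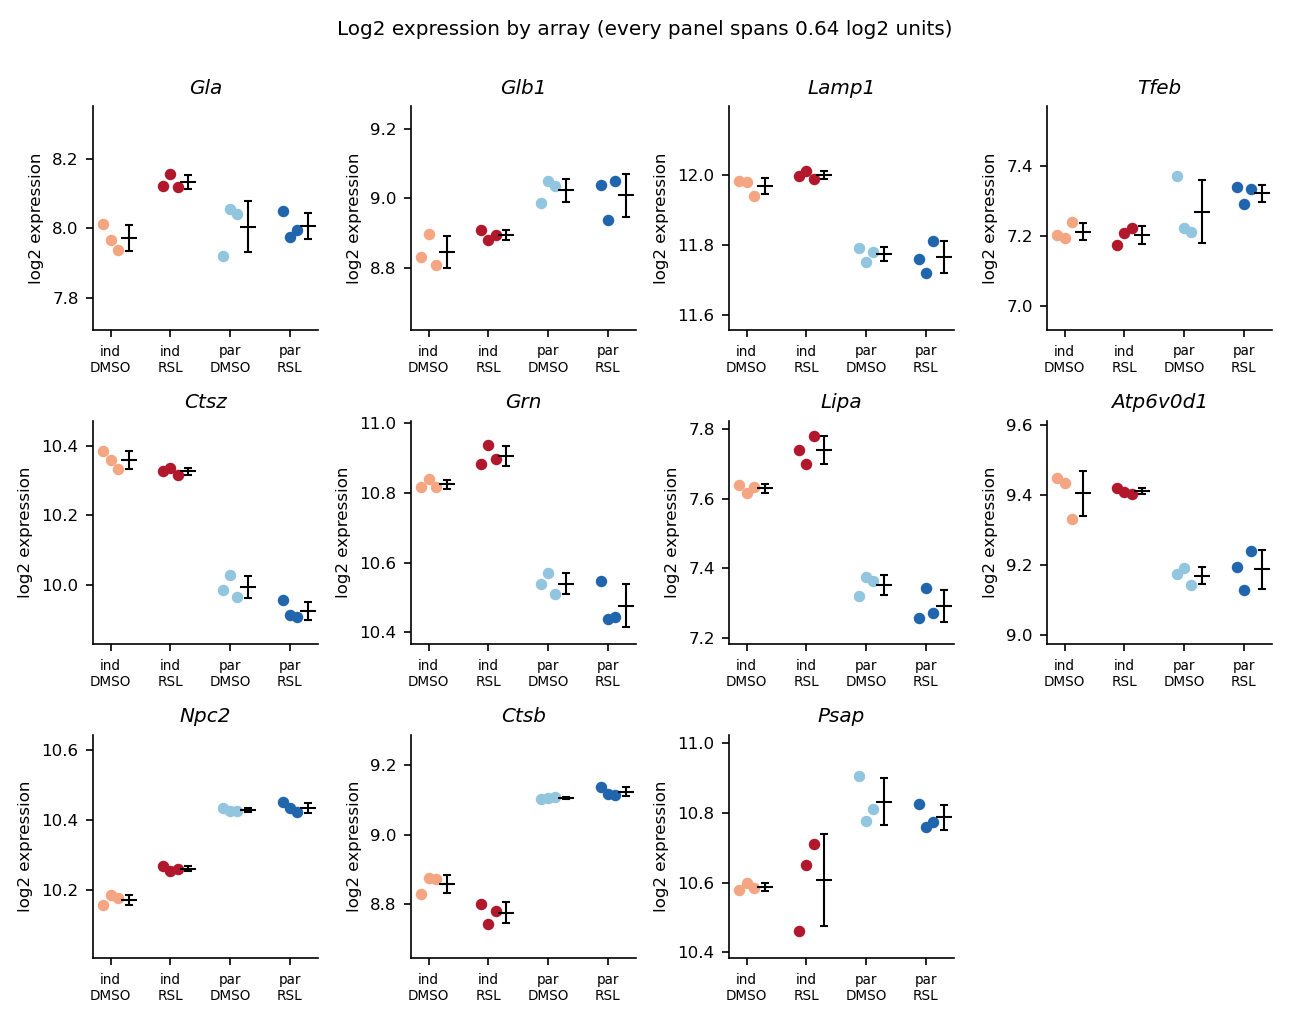
Log2 expression of 11 lysosome genes on each of the 12 arrays (points; ind, inducible; par, parental), and group means with SD over 3 arrays (black). Every panel spans 0.64 log2 units, so distances can be compared across panels, and for all but Gla and Tfeb the inducible and parental arrays lie apart.

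The second question was how the lysosome genes stood in the clone against the parental line without ligand. Of the 32 genes 19 were called (59.4%), 13 higher and 6 lower in the inducible cells, where 29.7% of all probe sets were called (15.2% higher and 14.5% lower). Among the 60% of probe sets with the highest mean the share was 44.5%. The median log2 fold change of the list was 0.021, beside -0.0067 over all probe sets, and the median size without sign was 0.16 beside 0.06. Genes of the list were called in both directions, and a common shift was not tested. All 6 inducible arrays lay above all 6 parental arrays for 13 genes and below them for 5, together 56.2% of the list against 25.2% of all probe sets and 38.1% of those with the highest mean. Galns and Neu1 were called but overlapped in that view, and Gusb was separated but not called (log2 fold change 0.08, adjusted p = 0.0733).

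Ctsz, a carboxypeptidase of the cathepsin family, was the gene with the largest difference. It read 10.38, 10.36 and 10.33 in the inducible DMSO arrays against 9.99, 10.03 and 9.97 in the parental DMSO arrays, a log2 fold change of 0.36 (SE 0.031), or 1.29-fold (95% confidence interval 1.23 to 1.35), with an adjusted p of 1.66e-07. The gap between the lines was far wider than the spread of either. Grn was higher by 0.28, or 1.22-fold (adjusted p = 9.9e-06), and Lipa by 0.28, or 1.21-fold (adjusted p = 9.56e-06), with the array values given above. In both genes no inducible array came within the range of the parental arrays. Atp6v0d1, a subunit of the membrane sector of the V-ATPase, read 9.45, 9.44 and 9.33 in inducible cells under DMSO against 9.18, 9.19 and 9.14 in parental cells. It was higher by 0.24, or 1.18-fold (adjusted p = 0.00014). Under RSL it read 9.42, 9.41 and 9.40 in inducible cells and 9.19, 9.13 and 9.24 in parental cells, and the lines stayed apart.

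The largest differences in the other direction were those of Npc2, Ctsb and Psap. Npc2 read 10.43, 10.43 and 10.43 in parental cells under DMSO and 10.45, 10.43 and 10.42 under RSL, all above the inducible arrays. It was lower in inducible cells by a log2 fold change of -0.26, or 0.837-fold (95% confidence interval 0.803 to 0.873, adjusted p = 3.25e-06). Ctsb, cathepsin B, read 8.83, 8.88 and 8.87 in inducible cells against 9.10, 9.11 and 9.11 in parental cells, with a log2 fold change of -0.25 (adjusted p = 9.4e-06). Its parental DMSO arrays lay almost on top of each other (SD 0.0018). Psap read 10.91, 10.78 and 10.81 in the parental DMSO arrays and 10.83, 10.76 and 10.77 in the parental RSL arrays. Its log2 fold change was -0.24 (SE 0.052, adjusted p = 0.00156), and all inducible arrays lay below all parental ones. Glb1, whose arrays are given above, was the fourth of these genes. It was lower in inducible cells, by a log2 fold change of -0.18, or 0.885-fold (95% confidence interval 0.837 to 0.934), with an adjusted p of 0.00145.

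Over all probe sets 29.7% were called, and 44.5% of the 60% with the highest mean. By role, 4 of 8 proteases were called higher and 1 lower (62.5%). Besides Ctsz they were Ctsd at 0.21, Ctsa at 0.17 and Ctsh at 0.15, although Ctsh lay below the first quartile on every array. Of 9 glycosidases and sulfatases, Gaa at 0.19 and Neu1 at 0.16 were higher, and Glb1 and Galns, the latter at -0.17, were lower. The other 5 were not called, and the share called, 44.4%, was near that of the probe sets with the highest mean. Of 7 lipid-handling genes, Lipa and Smpd1 at 0.17 were higher, and Npc2, Psap and Asah1 at -0.14 were lower (71.4% called). Npc1, the membrane partner of Npc2, was at 0.07, on the other side of 0 from Npc2, and was not called (adjusted p = 0.223).

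Among 4 membrane proteins, Lamp1 and Mcoln1 were higher (50% called). Lamp1 read 11.79, 11.75 and 11.78 in the parental DMSO arrays and 11.76, 11.72 and 11.81 in the parental RSL arrays, below every inducible array, and its log2 fold change between the lines was 0.19 (SE 0.032, adjusted p = 0.000178). Mcoln1, at 0.11, passed with an adjusted p of 0.0356. Its call ended without inducible DMSO replicate 1 or 2 or parental DMSO replicate 1 or 3, where the adjusted p lay between 0.0673 and 0.1335. Lamp2, which marks the same membrane as Lamp1, was at -0.05 and not called (adjusted p = 0.632), with the widest spread of the list between replicates (residual SD 0.086). Both V-ATPase subunits were higher, Atp6v1h by 0.22 (adjusted p = 0.000253). Tfeb read 7.37, 7.22 and 7.21 in the parental DMSO arrays and 7.34, 7.29 and 7.33 in the parental RSL arrays, and it was not called between the lines (-0.06, adjusted p = 0.342). The first parental DMSO array of Tfeb stood above the other DMSO arrays of both lines.

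Of the 10 genes with CACGTG in the promoter window, 6 were called higher and 1, Glb1, lower in the clone, with a median log2 fold change of 0.14. Of the 16 without it, 5 were called higher and 2 lower, with a median of -0.010. Over all probe sets 15.2% were called higher and 14.5% lower, and the difference between the 10 and the 16 genes was not tested. Of the promoters printed above, those of Lamp1 and Atp6v0d1 belonged to genes higher in the clone, that of Glb1 to a gene lower in it and that of Gla to a gene not called (-0.03, adjusted p = 0.618). Under RSL in inducible cells the medians were 0.04 with and 0.026 without the core.

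The wider lists showed the clone's difference in both directions as well. Of the 94 other lysosomal and autophagic genes 39 were called (41.5%), 26 higher and 13 lower. That share lay above the 29.7% of all probe sets and below the 44.5% of those with the highest mean. Further V-ATPase subunits were called in 6 of 16 cases (37.5%, also between these shares). All 6 were higher, led by Atp6v1a at 0.37, Atp6v0a1 at 0.29 and Atp6v1e1 at 0.27. Of 24 other acid hydrolases 8 were higher and 4 lower (50% called). Arsa, the arylsulfatase of sulfatides, at 0.22, the carboxypeptidase Scpep1 at 0.22 and Gm2a, the activator of ganglioside breakdown, at 0.19 had the largest higher values. Arsb, the arylsulfatase of dermatan sulfate, at -0.39, Lgmn, the asparaginyl protease, at -0.16 and Cpq, a peptidase, at -0.16 had the largest lower values.

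Of 16 other membrane proteins and transporters 7 were called (43.8%). The channel Tpcn2 at 0.16 and the enzyme receptor Scarb2 at 0.12 were higher, and 5 were lower. The latter were led by Slc17a5, the sialic acid exporter, at -0.27, the channel Tmem175 at -0.22 and Ostm1 at -0.22. Of 28 genes of sorting, fusion and nutrient signalling 8 were called (28.6%), near the 29.7% of all probe sets. In that list 5 were higher, led by the GTPase Rragc at 0.14, M6pr, a mannose 6-phosphate receptor, at 0.13 and Tfe3, a relative of TFEB, at 0.13. The other 3 were lower, Gnptab, which begins the mannose 6-phosphate tag, at -0.25, Igf2r, the other receptor of that tag, at -0.16 and Lamtor2 at -0.13. The tag's receptors thus lay on opposite sides. Of 10 autophagy genes 6 were called (60%). In that list 5 were higher, led by Sqstm1, a cargo receptor, at 0.35, Wipi1 at 0.28 and Gabarapl1 at 0.22, and Atg9b was lower at -0.48. The macrophage marker Cd68, itself a lysosomal glycoprotein, was higher in the clone by 0.40 and Csf1r lower by -0.20, and the summed level of the 9 macrophage markers was 9.63 to 9.66 in the inducible and 9.60 to 9.64 in the parental DMSO arrays on the log2 scale. Both lines are cultures of NIH 3T3 fibroblasts, and why Cd68 and Csf1r differed between them was not tested.

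**Figure D4:**
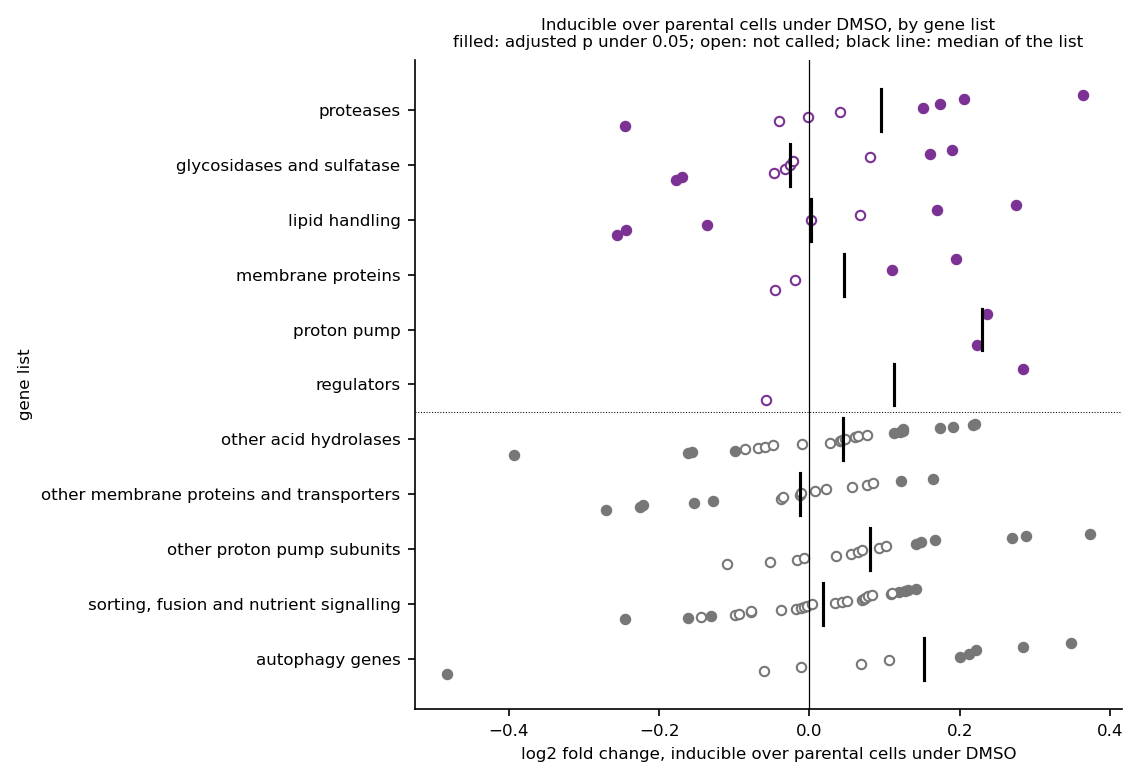
Log2 fold change of inducible over parental cells under DMSO (horizontal axis) for each measured gene (points), by list, with the 32 genes above and the 94 other lysosomal and autophagic genes below the dotted line. Filled points passed the test, and the black line marks the median of each list, which is 0.23 for the 2 proton pump genes above the dotted line.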

How the data were processed

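Total RNA of 12 samples was hybridised to Affymetrix Mm430_2.0 arrays. The authors deposited 1 table of log2 values, made by quantile normalization after RMA background correction, with probes grouped into genes by a Custom CDF based on Entrez. That the logarithm has base 2 was read from the values' range. How probes were summarised was not given in the sources used here. Of 16539 probe sets, 64 hybridization controls were left out and 16475 were tested without a filter. Gene symbols came from the annotation given for the probe sets, in which 15780 had 1 symbol and 695 none. The table held 0 columns of other samples.

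A model with 4 group means and no block was fitted to all 12 arrays in limma 3.58.1 (R 4.3.3), with 8 residual degrees of freedom before moderation. It gave 4 comparisons that share arrays, the effect of RSL in each of the lines, the difference between those effects, and the inducible over the parental line without ligand. The threshold for a call was 0.05 after Benjamini-Hochberg adjustment over all probe sets. Intervals are 95% intervals of the moderated fit. Depth does not apply to arrays, whose number limits the precision.

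The genes and lists were chosen with earlier results of these data known. Array values are given for genes called under RSL, for Glb1, Lamp1 and Tfeb, and for the 4 largest differences per direction among genes called between the lines, and of the other lists up to 3 called genes per direction are named. Array values of Hexa and Neu1 were added after they were seen. Replicate numbers did not pair the arrays. Settings changed in turn were array weights, an intensity trend, a block for replicate numbers, removal of the 40% of probe sets with the lowest mean, array medians subtracted, quantile normalization repeated, a fit of only the 6 arrays of a comparison, the one-way analysis that the methods name, and omission of each array. The fit was tested on simulated data.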

Additional observations from a re-analysis of the deposited data

Results flagged for a closer look

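The RSL arrays of Ctsb, cathepsin B, lay on opposite sides of the DMSO arrays in the lines. In inducible cells all 3 RSL arrays, at 8.80, 8.74 and 8.78, lay below all 3 DMSO arrays, at 8.83, 8.88 and 8.87. In parental cells all 3 RSL arrays, at 9.14, 9.12 and 9.11, lay above all 3 DMSO arrays, at 9.10, 9.11 and 9.11, although by far less (log2 fold change 0.017 against -0.08). With array medians subtracted, 0 genes of the list lay higher without overlap in parental cells, so that this separation of Ctsb was lost. The difference of the effects was -0.10 on the log2 scale (95% confidence interval -0.19 to -0.0093). It did not pass in limma (adjusted p = 0.487, unadjusted p = 0.0328).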

How the results depend on the processing

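Under RSL in inducible cells the 1 called gene, Gla, was lost with a replicate block (0 called), with array medians subtracted (0) and in the one-way analysis after Benjamini-Hochberg (0), and with array weights 3 were called. At that analysis's nominal threshold 13 genes were called in inducible and 1 in parental cells. Leaving out 1 array gave 0 to 1, with 0 for each inducible array. Weights called 1 gene, Lipa, for the difference. Over all probe sets, 418 calls in inducible cells became 736 with weights, 1 and 1913 in the one-way analysis (adjusted and nominal), and 204 to 457 without 1 array, the lowest being without inducible DMSO replicate 1 (204), replicate 2 (213) and RSL replicate 1 (227). The 5 in parental cells became 8 with the filter, 10 with a trend, 106 with weights, 8 with repeated quantile normalization, 2 in the 6 arrays alone, 0 and 1226 in the one-way analysis, and 1 to 12 without 1 array. The 109 for the difference became 375 with weights and 56 to 144 without 1 array. Genes of the list without overlap in parental cells, 3, were 1 after repeated quantile normalization and 4 to 9 without 1 array. With array medians subtracted they were 2, 0 higher and 2 lower. In inducible cells, 15 became 16 to 19 without 1 array. Leaving out an array can only keep or raise such numbers, so these rises are no check of the separation.

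Between the lines 17 to 20 of the 32 genes were called throughout. The replicate block, quantile normalization and the one-way analysis ended the call of Mcoln1 (adjusted p = 0.0581, 0.0505 and 0.106), and the last also that of Neu1 (0.0856). The filter added Gusb, and weights or leaving out parental DMSO replicate 2 added Npc1. No called value changed its sign. Of all 1536 values without 1 array, called ones included, 69 had the other sign, as had 23 of all 1044 under other settings. Same-numbered arrays correlated at -0.30 to 0.22 in 18 pairs, 4 of them over 0.1, and 2 of 12 arrays correlated best with their own number. Small shifts limit the list, since intervals in inducible cells reached 0.061 to 0.12 to either side.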
